A study of Mus musculus with 2 samples.

Results

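The S100 calcium-binding proteins and the annexins were examined in heart RNA of mice that lack Med1 in cardiomyocytes. The members were 10 genes taken by symbol, out of 22882 symbols in the expression files: the S100 genes S100a1, S100a4, S100a6, S100a10 and S100a11, and the annexin genes Anxa1, Anxa2, Anxa3, Anxa5 and Anxa6. Each stands on 1 row of each file, and all 10 passed the filter on low values. The control group was Med1fl/fl mice, which carry loxP-flanked Med1 alleles and no named Cre, and the deleted group was csMed1-/- mice, in which the same floxed alleles are cut by Cre under the alpha-myosin heavy chain promoter. That promoter drives Cre in cardiomyocytes from late gestation on, so the other cells of the heart are expected to keep Med1, which was not measured here. Both groups were C57BL6/J mice of mixed sex aged 23 days, with no treatment. Heart RNA of 5 mice went into 1 pool and 1 library per genotype, so there are no replicates, no test between the genotypes was possible, and a difference below is a difference between 2 libraries.

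S100 proteins are small proteins with paired EF-hand motifs that bind calcium and then dock onto target proteins. Annexins carry a repeated core that binds acidic phospholipids when calcium is present, which brings them to the inner face of membranes during vesicle traffic and membrane repair. The families meet in complexes, the best known being that of S100A10 with annexin A2 and that of S100A11 with annexin A1. In the heart S100A1 is the main S100 protein of cardiomyocytes, where it acts on the calcium pump SERCA2 and the ryanodine receptor. Most proteins of the other members are widely made by fibroblasts, endothelium and other non-muscle cells.

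In the csMed1-/- library 6 members had more than 2-fold higher expression than in control, and none was more than 2-fold lower. These 6 of 10 were S100a4, S100a6, S100a11, Anxa1, Anxa2 and Anxa5, while S100a1, S100a10, Anxa3 and Anxa6 stayed within 2-fold. Among the 10489 genes kept, meaning those with a value above 0 in each library that reached 1 FPKM in at least one of them, 13.6% were more than 2-fold higher and 18.0% were more than 2-fold lower. FPKM is the number of sequenced fragments scaled to transcript length and to the total mapped, so levels of different genes can be set roughly beside each other. Such comparisons are less certain for S100a11 and S100a4, which share much of their sequence with other annotated genes. On the log2 scale, the median csMed1-/- to control ratio was 1.41 over the 5 S100 genes and 1.32 over the 5 annexin genes, against -0.07 over all genes kept. The members were chosen with earlier results of these data known, so these counts and medians describe them and are no test of them as a set. In whole-heart RNA, a change in the number of cells of a type and a change in RNA per cell cannot be told apart.

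**Figure D1:**
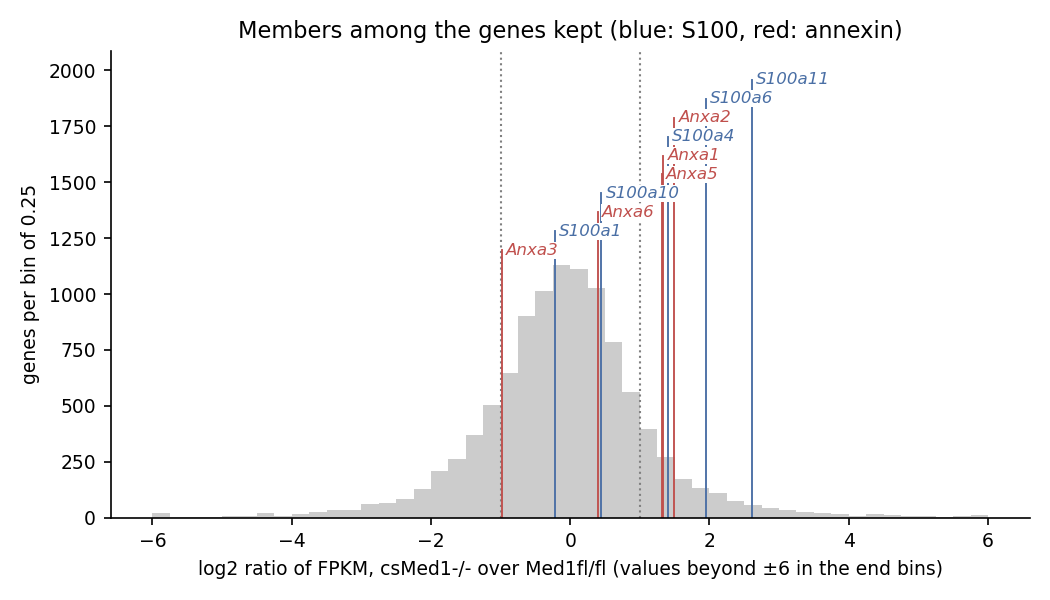
Histogram of the log2 ratio of csMed1-/- to Med1fl/fl FPKM (x axis) over the 10489 genes kept, in genes per bin (y axis), with dotted lines at 2-fold and a line at the ratio of each S100 gene (blue) and annexin gene (red). The 6 members past 2-fold lie to the right of the upper dotted line, Anxa3 lies just inside the lower one, and S100a11 lies farthest right at 2.61.

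The absolute depth of the libraries is unknown, as the files hold FPKM and no read counts, which bears most on Anxa1 and Anxa3, the members with the lowest levels. Low values step in units of single reads, and these steps place the csMed1-/- library about 1.39 times deeper than control, provided that only mapped fragments set the scale. The targeted gene Med1 was at 3.38 FPKM in the control library and 0.412 FPKM in the csMed1-/- library, a ratio of 0.122. In all, 6 symbols were listed at 0 in control and at 100 FPKM or more in csMed1-/- heart, and 6 showed the reverse. No member was among them.

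S100a11 (ENSMUSG00000027907.4, chromosome 3, 93520488 to 93526287, plus strand, GRCm38) encodes calgizzarin, a partner of annexin A1. Its level was 212 FPKM in the control library and 1292 FPKM in the csMed1-/- library, a ratio of 6.09 and a log2 ratio of 2.61. Of the genes kept, 245 had a higher ratio. By level it moved from rank 496 of all symbols in control to rank 98 in csMed1-/- heart. Of the 462 different 50-base words in its transcript, 41.1% also occur in processed pseudogenes (Gm12854, Gm7665 and Gm29240), and how the counting divided such reads is not given in the sources used here, so its level is less certain than that of S100a6, S100a10 or S100a1, which share no such word with another gene.

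S100a6 (chromosome 3, 90612882 to 90624181, plus strand) encodes calcyclin, which binds annexins A2 and A11 and the ubiquitin ligase adaptor CACYBP. It was at 83.5 FPKM in control against 321 FPKM in csMed1-/- heart, a ratio of 3.85. S100a4 (chromosome 3, 90603771 to 90606045, plus strand) encodes a protein also called fibroblast-specific protein, which binds non-muscle myosin IIA. It was at 12.8 FPKM in control against 33.9 FPKM in csMed1-/- heart, a ratio of 2.65. S100a4 was the lowest of the 5 S100 genes in both libraries, and its exons overlap those of the annotated gene Gm42674 on the same strand, with which it shares 47.4% of its 50-base words.

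S100a10 (chromosome 3, 93555080 to 93564643, plus strand) encodes p11, an S100 protein that no longer binds calcium and pairs with annexin A2. It was at 118 FPKM in control against 161 FPKM in csMed1-/- heart, a ratio of 1.37. S100a1 (chromosome 3, 90511034 to 90514392, minus strand), the cardiomyocyte S100 gene, was at 1083 FPKM in control against 927 FPKM in csMed1-/- heart, a ratio of 0.856. These were the S100 members within 2-fold. The genes of the S100A1 targets SERCA2 and the ryanodine receptor were far lower in the csMed1-/- library. Atp2a2, which encodes SERCA2, was at 3585 FPKM in control against 238 FPKM in csMed1-/- heart, and Ryr2, which encodes the ryanodine receptor, at 84.6 and 8.70 FPKM. Ttn, also on the list of partners, was within 2-fold, at 8.22 and 5.75 FPKM. The S100a1 level was 0.302 times that of Atp2a2 in control and 3.89 times in csMed1-/- heart. Against Ryr2 it was 12.8 times in control and 107 times in csMed1-/- heart.

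**Figure D2:**
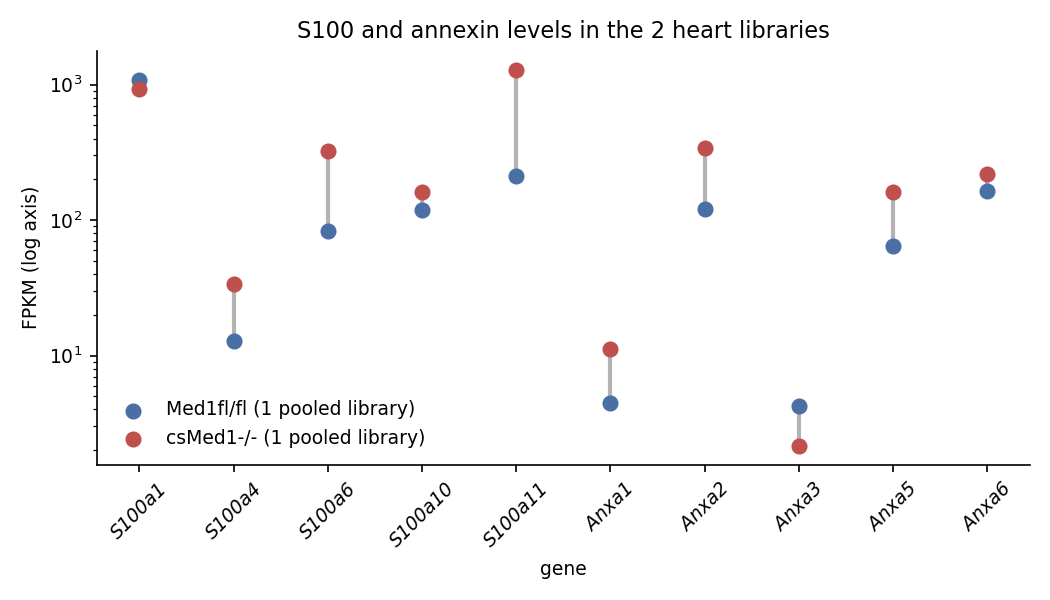
FPKM (y axis, log scale) of each of the 10 members (x axis) in the pooled Med1fl/fl library (blue) and the pooled csMed1-/- library (red), 1 point per library with no replicates. The largest vertical distance is that of S100a11, from 212 to 1292 FPKM, while S100a1 and Anxa3 are the members whose red point is below the blue one.

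The order of the S100 levels differed between the libraries. In control heart it ran S100a1, S100a11, S100a10, S100a6 and S100a4 from highest to lowest, and in csMed1-/- heart S100a11, S100a1, S100a6, S100a10 and S100a4. S100a1 held 71.7% of the summed FPKM of the 5 genes in control and 33.9% in csMed1-/- heart, whereas S100a11 held 14.1% and 47.2%. The sum was 1509 FPKM in control against 2736 FPKM in csMed1-/- heart, and without S100a1 it was 427 and 1809 FPKM, a ratio of 4.24. Without replicates it cannot be said which neighbours in these orders differ beyond the spread between pools.

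The promoter windows of 7 members are in the RefSeq table used here (GRCm38.p6), each holding 250 bases before and 50 bases after the annotated start. Those of S100a11, S100a6 and Anxa2 are shown because these genes had the highest ratios among the S100 and the annexin members, and that of S100a1 because it is the most abundant member in control heart and was within 2-fold. They are written 5′ to 3′ on the strand of the gene, with matches to the motifs searched in capitals. S100a11 is at chr3:93520246-93520545 (plus strand), S100a6 at chr3:90612644-90612943 (plus), Anxa2 at chr9:69453433-69453732 (plus) and S100a1 at chr3:90514281-90514580 (minus).
S100a11: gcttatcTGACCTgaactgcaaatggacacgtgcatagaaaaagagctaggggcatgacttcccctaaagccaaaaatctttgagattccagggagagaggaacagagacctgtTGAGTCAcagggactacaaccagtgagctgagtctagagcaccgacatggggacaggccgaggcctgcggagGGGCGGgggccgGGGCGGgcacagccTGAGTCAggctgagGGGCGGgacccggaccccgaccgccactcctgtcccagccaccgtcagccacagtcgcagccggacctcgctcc
S100a6: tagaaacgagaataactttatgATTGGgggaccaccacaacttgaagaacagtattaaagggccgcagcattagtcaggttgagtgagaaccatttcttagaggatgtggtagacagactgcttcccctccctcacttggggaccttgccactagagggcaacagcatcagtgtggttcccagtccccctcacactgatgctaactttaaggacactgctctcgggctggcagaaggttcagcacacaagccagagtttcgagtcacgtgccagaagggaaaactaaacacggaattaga
Anxa2: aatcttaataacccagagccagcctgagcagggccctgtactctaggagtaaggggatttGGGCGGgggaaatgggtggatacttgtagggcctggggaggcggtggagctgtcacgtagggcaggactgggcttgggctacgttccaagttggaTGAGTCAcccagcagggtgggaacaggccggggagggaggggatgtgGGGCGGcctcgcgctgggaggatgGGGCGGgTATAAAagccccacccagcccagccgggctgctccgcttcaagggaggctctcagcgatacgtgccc
S100a1: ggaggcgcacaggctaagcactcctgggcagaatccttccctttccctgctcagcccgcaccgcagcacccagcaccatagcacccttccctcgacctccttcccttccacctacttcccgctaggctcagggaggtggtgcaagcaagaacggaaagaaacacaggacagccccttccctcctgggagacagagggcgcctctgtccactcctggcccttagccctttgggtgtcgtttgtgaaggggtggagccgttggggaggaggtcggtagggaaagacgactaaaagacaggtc

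The motifs searched, on both strands, were the GC box GGGCGG, the AP-1 site TGANTCA, the TATA box TATAAA, the CCAAT box CCAAT, the TEAD site GGAATG, the nuclear receptor half-site AGGTCA and the CArG box of serum response factor. A CArG box can contain a CCAAT box, but no printed matches overlap. The S100a11 window held 3 GC boxes, whose first bases lie 64, 52 and 24 bases before the start, and 2 AP-1 sites at 136 and 38 bases before it. The Anxa2 window also held 3 GC boxes, at 190, 48 and 24 bases before the start, with 1 AP-1 site at 95 bases and a TATA box at 17 bases. These were the only windows of the 7 with a GC box and the only ones with an AP-1 site. S100a10, Anxa3 and Anxa6, all within 2-fold, had no window, which leaves S100a1 as the only such member among the 7. The windows therefore cannot set the higher members against those within 2-fold. Over all 32544 promoter windows in the table, 35.9% held a GC box, 7.79% an AP-1 site and 13.6% a TATA box. The S100a6 window held 1 CCAAT box, as did 37.4% of all windows, and the S100a1 window held none of the motifs.

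A nuclear receptor half-site, which 16.2% of all windows hold, was found in S100a11 at 243 bases before the start and in S100a4 at 24 bases, next to a TATA box at 31 bases. Anxa1 held a TATA box at 32 bases and a TEAD site at 236 bases before the start, the latter found in 14.6% of windows. Anxa5 held a CArG box 25 bases after the start, as 1.64% of windows do. The GC content of the 7 windows ran from 47.3% in Anxa1 to 63.7% in Anxa2, against a median of 53% over all windows. These matches describe letters in a window, and no binding was measured here.

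Among the annexins, Anxa2 (chromosome 9, 69453620 to 69491795, plus strand) encodes the annexin that with S100A10 gathers plasminogen and its activator on the cell surface. It was at 120 FPKM in control against 338 FPKM in csMed1-/- heart, a ratio of 2.82. Anxa5 (chromosome 3, 36448923 to 36475894, minus strand), whose protein binds the phosphatidylserine that dying cells expose, was at 64.7 FPKM in control against 161 FPKM in csMed1-/- heart, a ratio of 2.49. Anxa1 (chromosome 19, 20373428 to 20390944, minus strand) encodes a glucocorticoid-induced protein that limits inflammation through formyl peptide receptors. It was at 4.46 FPKM in control against 11.3 FPKM in csMed1-/- heart, a ratio of 2.53. The 3 ratios lay close together although the levels of Anxa1 and Anxa2 were far apart.

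Anxa6 and Anxa3 were the annexin members within 2-fold. Anxa6 (chromosome 11, 54979108 to 55033445, minus strand) encodes the largest annexin, with a duplicated core, and its reference transcript has 26 exons where those of the other 4 have 13. It was at 165 FPKM in control against 217 FPKM in csMed1-/- heart, a ratio of 1.32. Anxa3 (chromosome 5, 96793339 to 96845966, plus strand) was at 4.26 FPKM in control against 2.15 FPKM in csMed1-/- heart, a ratio of 0.505, the only member besides S100a1 that was lower. Its log2 ratio of -0.98 lay just inside the 2-fold line and became -1.02 when the libraries were scaled to their 75th percentile.

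The annexin order also differed between the libraries. From highest to lowest it ran Anxa6, Anxa2, Anxa5, Anxa1 and Anxa3 in control, and Anxa2, Anxa6, Anxa5, Anxa1 and Anxa3 in csMed1-/- heart. Anxa6 held 46.1% of the summed FPKM of the 5 genes in control and 29.8% in csMed1-/- heart, while Anxa2 held 33.5% and 46.3%. The sum itself was 358 FPKM in control against 730 FPKM in csMed1-/- heart, a ratio of 2.04. Anxa1 and Anxa3 were nearly level in control, at 4.46 and 4.26 FPKM, and apart in csMed1-/- heart, at 11.3 and 2.15 FPKM.

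**Figure D3:**
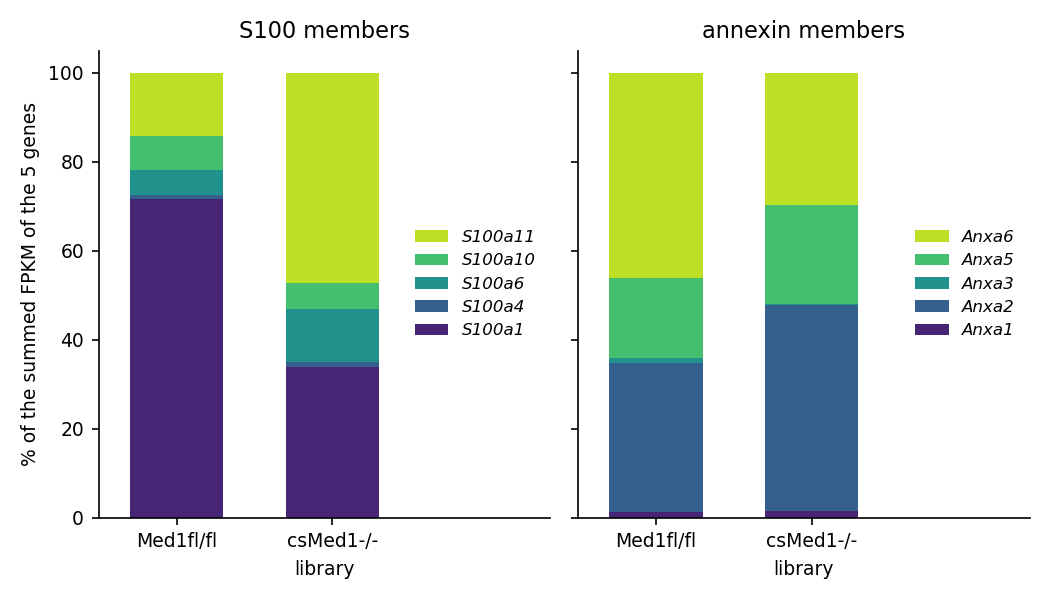
Share of each gene (colour) in the summed FPKM of the 5 S100 members (left) and of the 5 annexin members (right), in percent (y axis), for the Med1fl/fl and csMed1-/- libraries. The S100a1 segment shrinks from 71.7% to 33.9% as S100a11 grows from 14.1% to 47.2%, and Anxa2 passes Anxa6.

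Level ratios of genes whose proteins form complexes differed between the 2 libraries. S100a10 and Anxa2, which encode the subunits of one heterotetramer, were almost level in control, where the S100a10 level was 0.985 times that of Anxa2, whereas in csMed1-/- heart it was 0.476 times. S100a11 stood at 47.6 times the level of its partner Anxa1 in control and at 115 times in csMed1-/- heart. S100a6 was at 0.975 times the level of Anxa11 in control and 2.73 times in csMed1-/- heart, and at 0.697 and 0.950 times that of Anxa2. Of these 4 pairs, the S100 gene had the larger increase in 3, and in the pair of S100a10 and Anxa2 the annexin gene had it. The pairs share S100a6 and Anxa2. S100a11 was also set against Anxa2, a pair outside these 4, at 1.77 times its level in control and 3.82 times in csMed1-/- heart. No gene pairs were taken from outside the families and their partners. Whether partners differ from other pairs was not tested.

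All 5 S100 members lie on chromosome 3, where 14 of the S100 genes listed in the files are annotated. The first 12 of them, from S100a1 to S100a9, fall within 185 kb (90511034 to 90695721), and S100a11 and S100a10 follow after a gap of 2.82 Mb, with 28.8 kb between them. Neighbours differed in their ratios. S100a1 and S100a13 are transcribed away from each other with 42 bases between their annotated starts, and the start of S100a13 lies inside the S100a1 window printed above. S100a13, which encodes a protein that helps export growth factors without a signal peptide, was at 93.3 FPKM in control against 259 FPKM in csMed1-/- heart, a ratio of 2.78, against 0.856 for S100a1. S100a11 and S100a10 had ratios of 6.09 and 1.37.

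S100a8 and S100a9, the myeloid calprotectin genes, lie at the far end of the cluster and were low in both libraries. S100a8 was at 1.74 FPKM in control against 5.85 FPKM in csMed1-/- heart, and S100a9 at 1.51 and 3.79 FPKM. S100a16 was at 116 FPKM in control against 162 FPKM in csMed1-/- heart. S100a3 was listed at 0 in control and at 1.53 FPKM in csMed1-/- heart, and S100a2 (looked up after the files were seen) and S100a5 were listed at 0 in both. A listed 0 need not mean that a gene was not expressed.

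**Figure D4:**
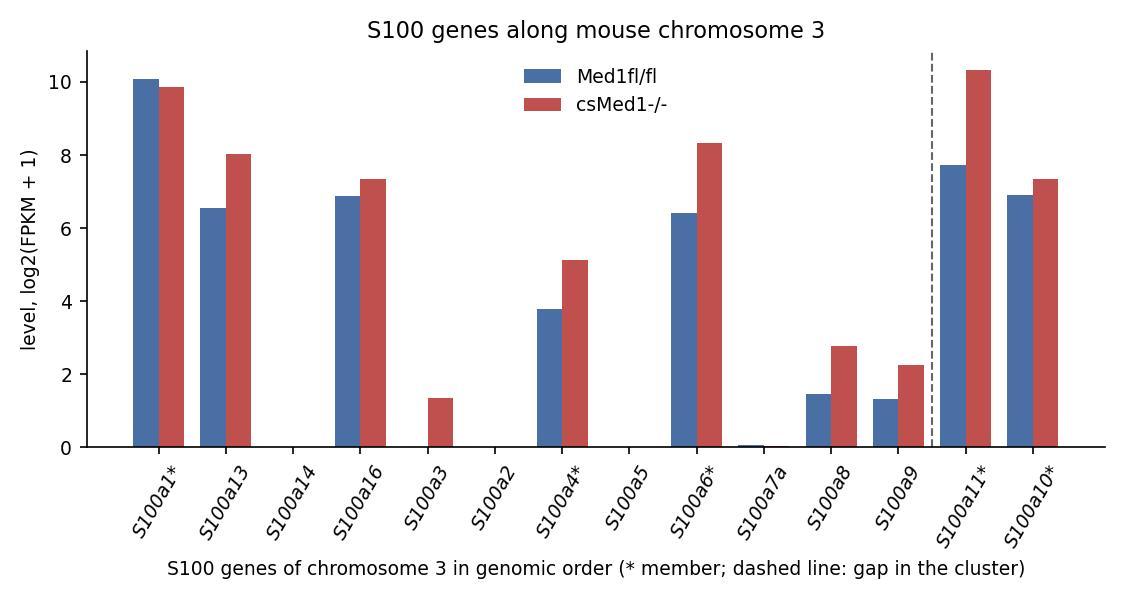
Level of the 14 S100 genes of chromosome 3 in genomic order (x axis, not to scale, members starred) as log2(FPKM + 1) (y axis) in the Med1fl/fl (blue) and csMed1-/- (red) libraries, with a dashed line where the 2.82 Mb gap falls. S100a1 at the left end is a tall pair with near-equal bars, and its neighbour S100a13 has a clearly taller red bar.

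Of the 11 other S100 genes written on the list, 4 passed the filter, and 3 of these (S100a8, S100a9 and S100a13) were more than 2-fold higher and 0 more than 2-fold lower. The median log2 ratio of the 4 was 1.40. Of the 7 other annexin genes 4 passed, and Anxa4 and Anxa8 were more than 2-fold higher. Anxa4, which binds membranes of secretory cells, was at 9.26 FPKM in control against 22.7 FPKM in csMed1-/- heart. Anxa8 was at 0.164 and 1.55 FPKM, a low level in both libraries, and it passed the filter only through the csMed1-/- library. Anxa7 was at 29.9 FPKM in control against 46.7 FPKM in csMed1-/- heart, and Anxa11 at 85.6 and 118 FPKM, both within 2-fold. Over both families, 11 of 18 genes that passed the filter were more than 2-fold higher and 0 more than 2-fold lower. Of all genes kept, 13.6% were higher and 18.0% lower by that much. The 18 genes include the 10 members, and members and lists were chosen with earlier results of these data known.

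The genes of binding partners and receptors did not share 1 direction. Of 13 genes on that list 7 passed the filter, 2 of them more than 2-fold higher and 2 more than 2-fold lower, with a median log2 ratio of -0.52. Ahnak, which encodes the large scaffold that S100A10 and annexin A2 anchor at the membrane, was at 12.6 FPKM in control against 88.0 FPKM in csMed1-/- heart. Tlr4, which encodes a receptor for the S100A8 and S100A9 dimer, was at 0.438 and 3.88 FPKM, and it passed the filter only through the csMed1-/- library. Myh9, which encodes the heavy chain of the myosin bound by S100A4, was at 22.8 and 29.2 FPKM. The formyl peptide receptor genes were at or near 0, with Fpr1 at 0 FPKM in control against 0.0147 FPKM in csMed1-/- heart and Fpr2 at 0.0835 and 0.113 FPKM.

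On the plasminogen list, 1 of the 4 genes with values was more than 2-fold higher and 0 more than 2-fold lower, with a median log2 ratio of -0.14. The 1 was Plaur, which encodes the urokinase receptor, at 2.78 FPKM in control against 14.7 FPKM in csMed1-/- heart. Plat, which encodes the activator that binds annexin A2, was at 8.04 and 8.79 FPKM. On the list of membrane repair genes, 0 of the 7 that passed the filter were more than 2-fold higher and 2 were more than 2-fold lower, with a median log2 ratio of 0.04. The 2 were Trim72, whose protein MG53 seals membrane wounds in striated muscle, at 226 FPKM in control against 67.7 FPKM in csMed1-/- heart, and Dysf, which encodes dysferlin, at 54.7 and 25.1 FPKM. The other 5 were within 2-fold, among them Cav3, which encodes the caveolin of muscle, at 212 FPKM in control against 370 FPKM in csMed1-/- heart, and the calpain genes Capns1, Capn1 and Capn2, with log2 ratios of 0.82, 0.44 and 0.04.

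Marker genes of the heart's cell types were set beside the members. Of 8 cardiomyocyte markers with values, 6 passed the filter, with 0 more than 2-fold higher, 4 more than 2-fold lower and a median log2 ratio of -1.33. Tnnt2 was at 2280 FPKM in control against 1119 FPKM in csMed1-/- heart, Tnni3 at 10283 and 1537 FPKM, and Actc1 and Mb, genes of heart muscle at high level in the csMed1-/- library, were listed at 0 in control. S100a1, with a log2 ratio of -0.22, was above the range of these 6, which ran from -2.74 to -0.52 (Ttn). The label of heart tissue was matched by the high level of Tnnt2, Tnni3 and Myl2 in both libraries, Myl2 being at 20467 FPKM in control against 6571 FPKM in csMed1-/- heart.

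Of 9 fibroblast markers, 4 were more than 2-fold higher and 2 more than 2-fold lower, with a median of 0.66, a range from -1.66 (Dpt) to 4.13 (Postn), and a summed level of 545 FPKM in control against 1206 FPKM in csMed1-/- heart. Col1a1 was at 129 FPKM in control against 502 FPKM in csMed1-/- heart, and Col1a2 at 95.7 and 314 FPKM. Of 8 endothelial markers, 1 (Vwf) was more than 2-fold higher and 3 more than 2-fold lower, with a median of -0.58 and a summed level of 496 and 431 FPKM. Pecam1 was at 91.8 FPKM in control against 76.9 FPKM in csMed1-/- heart, and Cdh5 at 129 and 92.2 FPKM. Tek, with the lowest ratio, was at 8.50 and 2.28 FPKM. Of 9 macrophage markers, 1 (Cd14) was more than 2-fold higher and 0 more than 2-fold lower, with a median of 0.43 and a summed level of 414 and 487 FPKM. Cd68 was at 10.9 FPKM in control against 15.9 FPKM in csMed1-/- heart, and Csf1r at 24.3 and 21.3 FPKM. Emr1, with the lowest ratio, was at 3.33 and 1.77 FPKM. Of 6 mural and smooth muscle markers, 2 were more than 2-fold higher and 1 more than 2-fold lower, with a median of 0.28 and a summed level of 665 and 1087 FPKM. Cnn1 alone was at 4.32 FPKM in control against 622 FPKM in csMed1-/- heart. Acta2 was lower, at 573 and 310 FPKM, as was Myh11, with the lowest ratio, at 3.68 and 1.79 FPKM.

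The other marker lists were at low levels. The neutrophil markers, among them Csf3r and Cxcr2, summed to 1.38 FPKM in control against 6.29 FPKM in csMed1-/- heart, with Elane at 0 in both. Retnlg alone passed the filter, only through the csMed1-/- library, with a log2 ratio of 2.97. The mesothelial markers summed to 1.56 and 5.07 FPKM, with Upk1b at 0 in control. Krt19, at 0.313 and 2.93 FPKM, passed the filter only through the csMed1-/- library. Schwann cell markers summed to 2.85 and 1.76 FPKM, lymphocyte markers to 1.09 and 0.982 FPKM, and the adipocyte markers Adipoq, Plin1 and Cfd were all at 0 in control and summed to 0.0183 FPKM in csMed1-/- heart. The part of a changed cell makeup in the higher S100 and annexin levels was not tested. Alongside them the macrophage sum was higher and the endothelial sum lower in csMed1-/- heart, and the cardiomyocyte sum, without Actc1 and Mb, was 52612 FPKM in control against 20157 FPKM in csMed1-/- heart. The macrophage and endothelial lists held genes that went both ways, and their sums were not recomputed without single genes. The mural, fibroblast and neutrophil sums depended in size or direction on a few genes, as seen after their values were known. Without Cnn1 the mural sum was lower, at 660 FPKM in control against 464 FPKM in csMed1-/- heart. Without Col1a1 and Col1a2 the fibroblast sum was 319 and 390 FPKM, and without Retnlg the neutrophil sum was 0.718 and 1.13 FPKM.

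**Figure D5:**
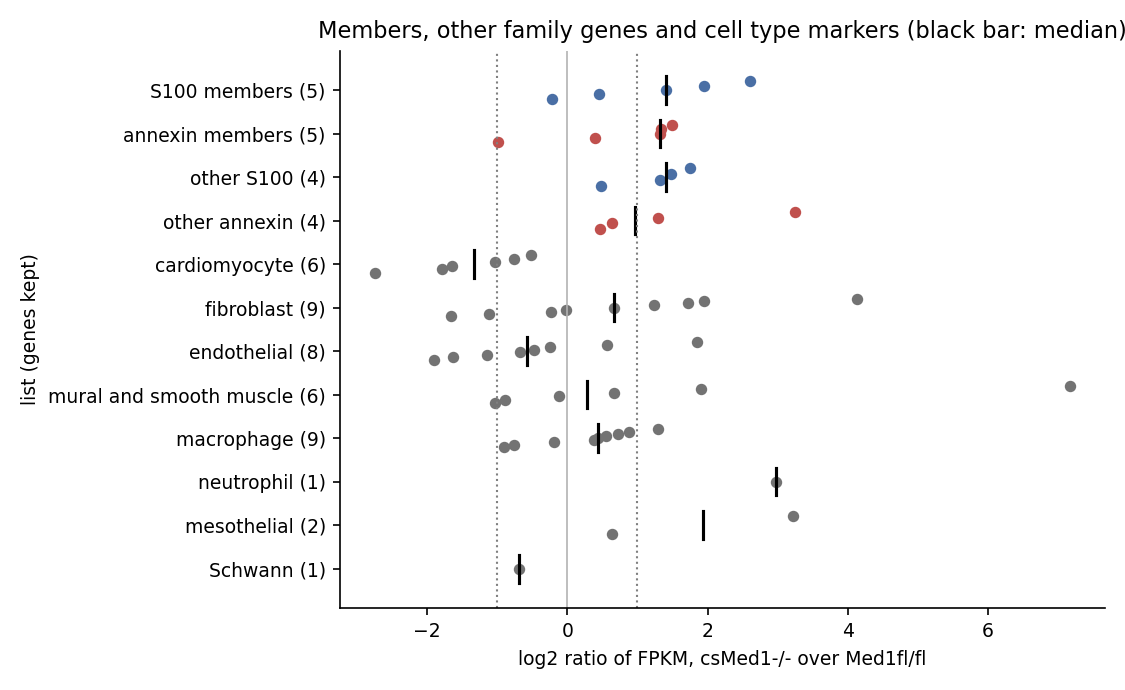
Log2 ratio of csMed1-/- to Med1fl/fl FPKM (x axis) of each gene that passed the filter (points), by list (y axis, number of genes in brackets), with a black bar at the median of each list and dotted lines at 2-fold. The S100 and annexin medians of 1.41 and 1.32 lie right of the upper dotted line, as do those of the other S100 genes, of the 1 neutrophil and of the 2 mesothelial genes, while the cardiomyocyte median lies at -1.33.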

How the data were processed

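Heart RNA of 5 mice per genotype was pooled into 1 directional library of polyadenylated RNA. Alignment by the authors used TopHat2 (2.0.8b, mm10), and the deposited FPKM values of known genes came from Cufflinks and cuffdiff (2.1.1). These roles follow the study's methods, while the labels also list STAR (2.4.0h) and other tools with no role, so the aligner behind the values is not certain. How their counting treated strand and multiply mapped reads, and how libraries were scaled, is not given in the sources used here. Here, rows that share a symbol were summed, and the csMed1-/- to control ratio was taken without a pseudocount for genes with values above 0 in each library that reached 1 FPKM in at least one. The size threshold was 2-fold. With 1 library per genotype no test was made. Positions, exons and 50-base words came from GENCODE M21 (GRCm38, the assembly of mm10), and promoter windows from RefSeq (GRCm38.p6). Genes named are the members, Med1, genes of the family, partner, plasminogen and membrane repair lists, and marker genes. Of a marker list, these were the first 2 genes with values and those with the highest and lowest ratio. Some of these were left unnamed in the lists at low levels, and Myl2 was named besides. Genes listed at 0, and single genes behind a count, were added after their values were seen. A gene of the plasminogen list is not reported here. Members and lists were chosen with earlier results of these data known. The calculation was tested on simulated data. Alternatives were pseudocounts of 0.1 and 1, other filters, scalings and row choices, and a 4-fold threshold. Python 3.11.15, numpy 2.4.6, pandas 2.3.3 and matplotlib 3.10.9 were used.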

Additional observations from a re-analysis of the deposited data

How the results depend on the processing

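No paired analysis was possible because each genotype has 1 library and the result comes from no test; for the same reason no replicate could be left out. Across 112 values recomputed under other pseudocounts, filters, scalings, row choices and thresholds, 104 moved by less than 1.5-fold, 8 moved by more and 0 reversed. The 8 that moved by more were all counts. Only a ratio with a main log2 value beyond 1 in size could be called reversed, and no count could. Row choice could not change a member, as each stands on 1 row. With a threshold of 4-fold, 1 of the 10 members (S100a11) was higher and 0 lower, and of the 10489 genes kept 453 were higher and 539 lower. Scaling to the 75th percentile put 1 member, Anxa3, past 2-fold lower. With no filter beyond values above 0, 15930 genes were kept, of which 2504 were higher and 3182 lower by more than 2-fold. With at least 10 FPKM in either library, 5426 genes were kept, 9 members among them, and 821 and 885 were higher and lower. The 6 members more than 2-fold higher numbered 6 under each of the other alternatives. The scalings shifted every log2 ratio by -0.04 to 0.07. The lowest-level member past 2-fold, Anxa1, had a log2 ratio of 1.17 with a pseudocount of 1.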
